A study of Sus scrofa with 3 samples.

Results

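The 5 microRNAs (miRNAs) described here, ssc-miR-103, ssc-miR-107, ssc-miR-26a, ssc-miR-378 and ssc-miR-320, are linked to insulin action and energy use in the liver and in fat. They were chosen by name, and each was found in the deposited read counts, on 7 of the 486 rows of each table, so they are 5 of the 405 mature miRNAs analysed. Liver small RNA of male pigs, taken on postnatal day 90, was sequenced. Enshi black, a domestic breed of China, the Chinese wild boar and the European commercial breed Large White each gave 1 library. The labels name no treatment and no genotype beyond the breed, and they speak of 3 male pigs without saying whether that is the number in all or for each breed. No difference between breeds can therefore be told apart from a difference between animals or preparations. The libraries held 7730934 (Enshi black), 7824836 (wild boar) and 7343033 (Large White) counts, and the intervals given below are exact, at the 95% level, for the counting of reads alone.

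A miRNA pairs through the bases near its 5′ end with sites in messenger RNAs and lowers their translation or stability. miR-103 and miR-107 are near-identical miRNAs that lie in introns of the pantothenate kinase genes, whose enzymes start coenzyme A synthesis, and in mice raising them in liver or fat impairs insulin sensitivity, in part through caveolin-1. In mice miR-26a in the liver improves insulin sensitivity and restrains glucose and fatty acid synthesis. miR-378 is encoded in PPARGC1B, a coactivator gene of mitochondrial metabolism, and in mice it acts on mitochondrial energy use and on hepatic insulin signalling. miR-320 is known from insulin-resistant fat cells and from the control of glycolysis, and its hairpin reaches Dicer without cleavage by Drosha.

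The host genes known from other mammals were found beside the pig precursors too. In the RefSeq annotation of the Sscrofa11.1 assembly, mir-103-1 lay within PANK3, mir-103-2 within PANK2 and mir-107 within PANK1. mir-26a lay within CTDSP2, a phosphatase gene, and mir-378-1 within PPARGC1B. mir-378-2 lay within BCAS3. mir-320 overlapped an end of POLR3D, which encodes an RNA polymerase III subunit. That assembly is not the one named for the deposited counts, so it was used for neighbours only. Mature sequences and seed sharing were not analysed here.

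Reads that match several rows had been divided between them in the deposited counts, which bears on miR-103, miR-107 and miR-378. The precursors mir-103-1 and mir-103-2 had 27896.67 and 28078.17 counts in the Enshi black library. They had 26208 and 26405 counts in the wild boar library, and 16013.67 and 16111.67 in the Large White library. The 2 rows thus differed by 0.305% to 0.374% of their sum, and the rows of miR-378 on mir-378-1 and mir-378-2 by 1.34% to 1.60%, so neither split says which gene the miRNA came from. Neither miR-103 nor miR-107 summed to a whole number in the Enshi black and Large White libraries, whereas their joint sums were 64028.01 and 37563.01, within 0.05 of whole numbers. In the wild boar library miR-103 (52613) and miR-107 (12140) were each whole. Some reads had therefore been shared between the 2 names in the Enshi black and Large White libraries, and how many is not given in the sources used here, while the wild boar counts show no such fraction. miR-378 and miR-378b-3p likewise had fractional counts, with joint sums within 0.05 of whole numbers, in the wild boar and Large White libraries, and whole counts each in the Enshi black library. miR-378b-3p had 275 counts in the Enshi black, 314.33 in the wild boar and 351.67 in the Large White library. miR-26a and miR-320 each had 1 precursor row with whole counts.

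The members covered a wide range of levels, and their order was nearly the same in each breed. Levels are given as CPM, counts per 1000000, with library sizes corrected by TMM (the trimmed mean of M-values), a scaling built on the assumption that the bulk of miRNAs is at the same level everywhere. Levels on plain library totals stand beside them, because the scaling moved all ratios of a pair together. In each library the order of the most abundant members was miR-26a, miR-103 and then miR-320. miR-378 stood above miR-107 in the Enshi black library (9134 and 8053 counts) and in the Large White library (9493 and 5438 counts). In the wild boar library miR-107 stood above miR-378, with 12140 and 9076 counts. Reads of different miRNAs also depend on how well each sequence is ligated, which was not tested. Together the members took 6.18% of the Enshi black (6.17 to 6.199), 6.38% of the wild boar (6.37 to 6.40) and 4.59% of the Large White miRNA reads (4.57 to 4.60). On that measure the Large White library was lowest. After TMM scaling the same sums were 51447, 59239 and 59376 CPM in that order, with the Enshi black library lowest. miR-26a alone made up 80.3%, 81.0% and 81.1% of these reads in the same order of libraries, so the sums mostly reflect miR-26a.

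**Figure D1:**
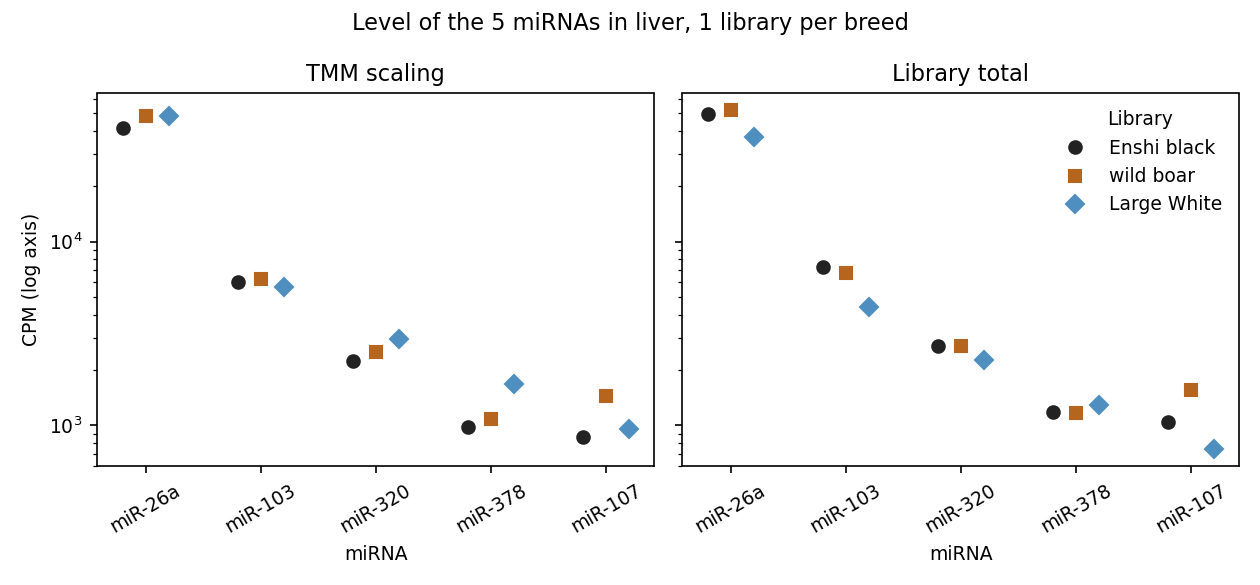
Level of each of the 5 miRNAs in CPM on a log axis, after TMM scaling (left) and on library totals (right), with 1 point for each library and no replicates. miR-26a lies far above the others in each library, miR-378 is highest in the Large White library in both panels, and miR-107 is highest in the wild boar library in both.

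miR-26a was among the most abundant miRNAs of the liver in all 3 breeds. It stood at 41321 CPM in the Enshi black, 47979 CPM in the wild boar library and 48129 CPM in that of the Large White. That gave it rank 3, 2 and 6 among all miRNAs in the same order. The wild boar and Large White levels were within counting error of each other after TMM scaling, with a ratio of 0.997 (0.992 to 1.002). On library totals that ratio was 1.39 (1.38 to 1.40). The Enshi black level was 0.859 times that of the Large White (0.854 to 0.863) and 0.861 times that of the wild boar library (0.857 to 0.865). On library totals the values were 49653, 51694 and 37175 CPM, and the log2 ratio for Enshi black over Large White was then 0.42, against −0.22 after TMM scaling. After TMM scaling the neighbours of miR-26a by mean level varied far more. miR-101 then stood at 42525, 44375 and 135568 CPM and miR-192 at 28885, 34653 and 67630 CPM in the same order of libraries. On library totals miR-192 stood at 34709, 37336 and 52237 CPM. Its highest level was then 1.505 times its lowest, against 1.39 times for miR-26a.

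miR-103 differed little between the libraries after TMM scaling. Its levels were 6025 CPM in the Enshi black (5976 to 6076), 6241 CPM in the wild boar (6187 to 6294) and 5664 CPM in the Large White library (5602 to 5726). The highest was 1.10 times the lowest, against a median of 1.59 times for all 208 miRNAs with a mean of at least 10 CPM. On library totals miR-103 stood at 7240, 6724 and 4375 CPM, a range of 1.65 times against a median of 1.89 times. The Large White library was lowest under each of the 4 scalings compared (TMM, library total, total without miR-122, and DESeq2 size factors). The order of the other two libraries turned with the scaling, with log2 ratios for Enshi black over wild boar of −0.05 after TMM scaling and 0.11 on library totals.

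miR-107 was highest in the wild boar library. It stood at 867 CPM in the Enshi black (848 to 886), 1440 CPM in the wild boar (1414 to 1466) and 959 CPM in the Large White library (933 to 985). The wild boar level exceeded the Large White level by 0.59 on the log2 scale, with an interval of the ratio from 1.45 to 1.55 times, and the Enshi black level was 0.602 times the wild boar level (0.585 to 0.619). Across the 4 scalings the difference in log2 level lay between 0.59 and 1.07 for wild boar over Large White, and between −0.73 and −0.57 for Enshi black over wild boar. Enshi black and Large White could not be ordered, with log2 ratios from −0.15 to 0.49. Among the 208 miRNAs tested, miR-107 had the 40th highest ratio of wild boar over Large White and the 18th lowest ratio of Enshi black over wild boar. Its highest level was 1.66 times its lowest after TMM scaling, near the median of 1.59 times over all miRNAs tested. On library totals the range was 2.09 times, against a median of 1.89 times.

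The balance of miR-103 to miR-107 sets the 2 miRNAs side by side within a library, so no scaling enters it. There were 55975 reads of miR-103 and 8053 of miR-107 in the Enshi black library, 52613 and 12140 in the wild boar library, and 32125 and 5438 in the Large White library. miR-103 took 87.4% of the joint reads in the Enshi black (87.2 to 87.7), 81.3% in the wild boar (80.9 to 81.6) and 85.5% in the Large White library (85.2 to 85.9). miR-103 thus outnumbered miR-107 in every library, by 6.95, 4.33 and 5.91 reads to 1 in that order. The 3 intervals, which cover counting alone, did not overlap. The highest of these ratios was 1.60 times the lowest, below the median range of 2.09 times over all 21528 pairs that the 208 miRNAs form. The odds of miR-107 were 1.36 times as high in the wild boar as in the Large White library (1.32 to 1.41). They were 0.850 times as high in the Enshi black as in the Large White (0.819 to 0.882) and 0.624 times as high in the Enshi black as in the wild boar library (0.605 to 0.643). With 1 animal or pool for each breed the spread of this balance between animals is unknown, and the part that shared reads play in it was not tested.

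**Figure D2:**
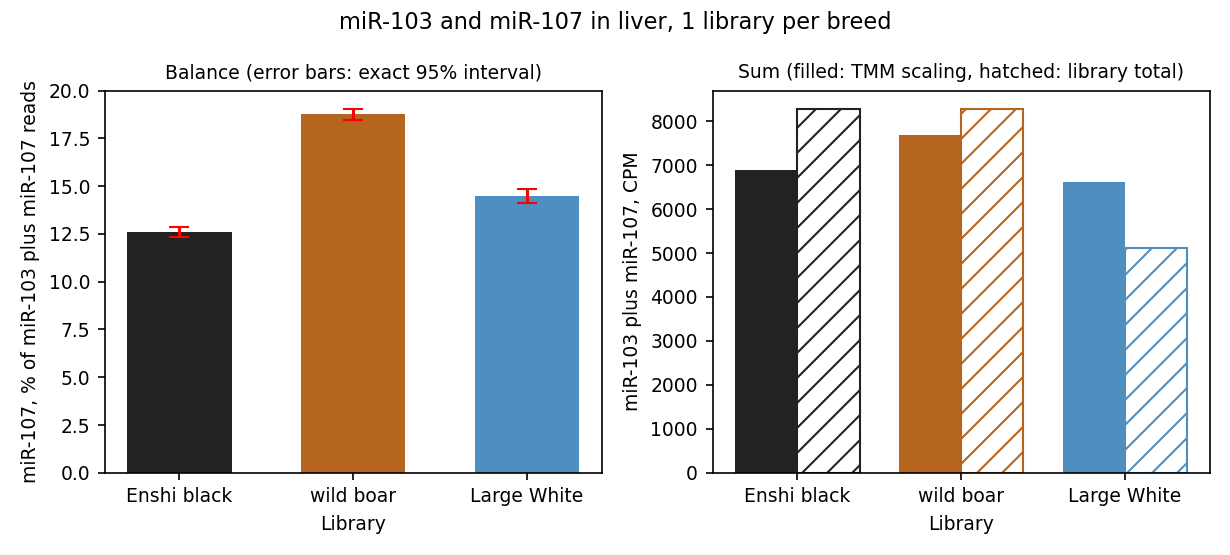
Left, miR-107 as a percent of the reads of miR-103 plus miR-107 in each library; the bars are Clopper-Pearson intervals at 95% for counting alone. Right, the sum of both in CPM, filled bars after TMM scaling and hatched bars on library totals; the miR-107 share is 18.7% in the wild boar library, above 12.6% in the Enshi black and 14.5% in the Large White library.

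The sum of miR-103 and miR-107 does not depend on how reads were divided between the 2 names. It came to 6892 CPM in the Enshi black, 7681 CPM in the wild boar library and 6623 CPM in that of the Large White. The Enshi black library was 1.04 times (1.03 to 1.05) and the wild boar library 1.16 times (1.15 to 1.17) the Large White level. On library totals the sums were 8282, 8275 and 5115 CPM, and both ratios to the Large White library were 1.62. The Large White library was lowest on both scales. On library totals the Enshi black and wild boar sums were within counting error of each other, with a ratio of 1.001 (0.990 to 1.01).

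miR-378 was the member that leaned most towards the Large White library. It stood at 983 CPM in the Enshi black (963 to 1004), 1077 CPM in the wild boar (1055 to 1099) and 1674 CPM in the Large White library (1640 to 1708). The Enshi black level was 0.587 times (0.571 to 0.605) and the wild boar level 0.643 times (0.625 to 0.662) that of the Large White. Library totals left a far smaller difference, with 1181, 1160 and 1293 CPM in the same order and ratios of 0.914 (0.888 to 0.941) and 0.897 (0.872 to 0.923). The Large White library was highest under each of the 4 scalings, with log2 ratios from −0.77 to −0.13 for Enshi black over Large White and from −0.64 to −0.16 for wild boar over Large White. Between Enshi black and wild boar the log2 ratio was −0.13 after TMM scaling and 0.03 on library totals. Of the 208 miRNAs, miR-378 had the 34th lowest ratio in Enshi black over Large White and the 48th lowest in wild boar over Large White. Its highest level was 1.70 times its lowest after TMM scaling, near the median of 1.59 times over all miRNAs tested. On library totals the range was 1.11 times, against a median of 1.89 times. Among the members' own reads miR-378 took 1.91% in the Enshi black (1.87 to 1.95), 1.82% in the wild boar (1.78 to 1.85) and 2.82% in the Large White library (2.76 to 2.88).

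miR-320 had the same order of libraries as miR-378 after TMM scaling, with smaller differences in both pairs over Large White. Its levels were 2250 CPM in the Enshi black (2220 to 2281), 2503 CPM in the wild boar (2469 to 2537) and 2950 CPM in the Large White library (2906 to 2995). The ratios to the Large White library were 0.763 for the Enshi black (0.747 to 0.778) and 0.848 for the wild boar (0.831 to 0.866). On library totals the Large White library was instead lowest, with 2704, 2697 and 2279 CPM, so the direction rests on the scaling. Enshi black and wild boar were then within counting error of each other, with a ratio of 1.003 (0.984 to 1.02).

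Set against all miRNAs tested, none of the 5 members reached a 2-fold difference after TMM scaling. In Enshi black over Large White 0 of 5 members passed 2-fold (a ratio of 2 or more, or its inverse, whose interval does not hold 1), where 13.0% of the 208 miRNAs did. In wild boar over Large White 0 of 5 did, against 25.0% of all, and in Enshi black over wild boar 0 of 5, against 12.5% of all. At 1.5-fold, miR-378 was lower in Enshi black over Large White, where 34.6% of all miRNAs were past that fold in either direction. miR-107 was higher and miR-378 lower in wild boar over Large White, against 45.7% of all. miR-107 was lower in Enshi black over wild boar, against 25.5% of all. On library totals 1 member passed 2-fold, miR-107 in wild boar over Large White, with a ratio of 2.09 (2.03 to 2.16), where 30.8% of all miRNAs were past 2-fold. None passed in Enshi black over Large White (30.3% of all) or in Enshi black over wild boar (10.6% of all).

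The median log2 ratio of the members was −0.22 in Enshi black over Large White, −0.0045 in wild boar over Large White and −0.15 in Enshi black over wild boar. Over all 208 miRNAs these medians were −0.04, −0.02 and −0.01. On library totals the median of all miRNAs was 0.60, 0.46 and 0.15 in the same pairs. Taken relative to the median miRNA, which no scaling changes, miR-378 lay at −0.73 and −0.62 in Enshi black and wild boar over Large White. miR-320 lay on the same side in these pairs, at −0.35 and −0.22. miR-107 lay at 0.60 in wild boar over Large White and at −0.73 in Enshi black over wild boar. miR-103 lay within 0.16 and miR-26a within 0.21 of the median miRNA in each pair, on the log2 scale. The pairs share libraries, so the 3 sets of values are not independent.

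**Figure D3:**
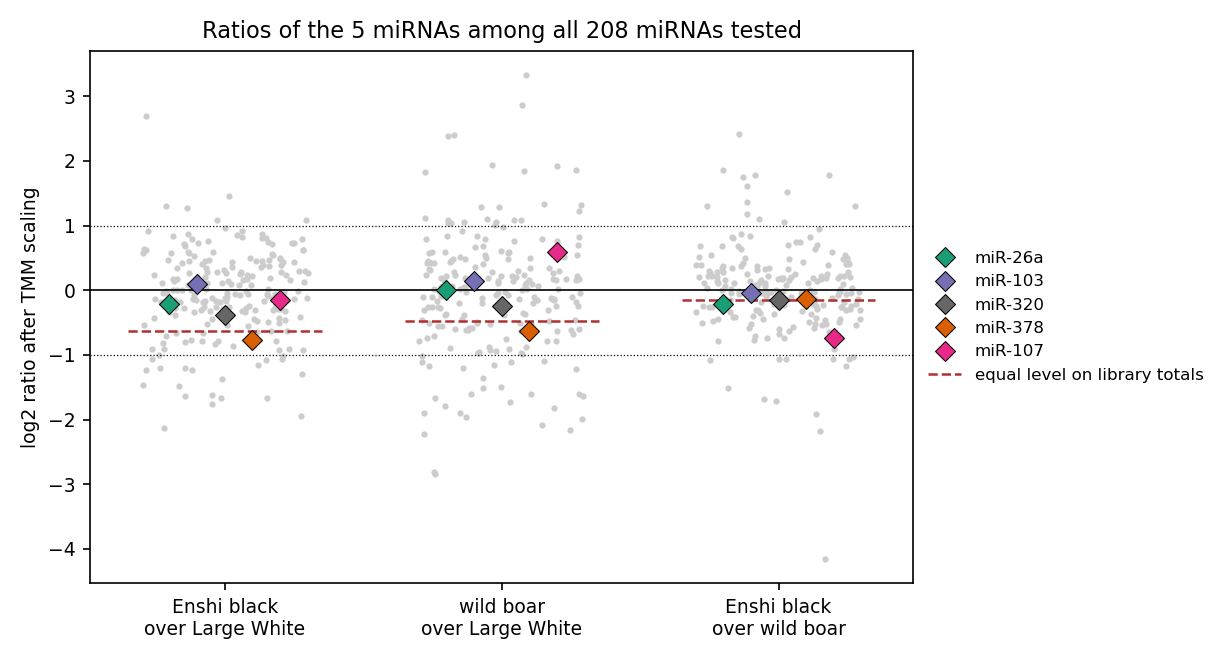
The log2 ratio after TMM scaling of each member (diamonds) and of all 208 miRNAs tested (grey points) in the 3 pairs of libraries, with 2-fold marked by dotted lines and the value that would be an equal level on library totals by a dashed line. All 5 members lie within the 2-fold lines in each pair; miR-378 lies lowest of the 5 in both pairs over Large White, and miR-107 lies at 0.59 in wild boar over Large White and at −0.73 in Enshi black over wild boar.

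Read ratios between the members need no scaling, and the pair of miR-107 and miR-378 moved most. There were 0.882 reads of miR-107 for each read of miR-378 in the Enshi black, 1.34 in the wild boar and 0.573 in the Large White library, a range of 2.34 times. miR-103 outnumbered miR-378 by 6.13, 5.80 and 3.38 reads to 1 in the same order, a range of 1.81 times. The Large White library was lowest in both ratios. The steadiest pair was miR-26a with miR-320, at 18.4 reads to 1 in the Enshi black, 19.2 in the wild boar and 16.3 in the Large White library, a range of 1.18 times. Over all 21528 pairs that the 208 miRNAs form, the median range was 2.09 times, and 9 of the 10 pairs of members ranged less than that. Many of those other pairs hold scarcer miRNAs, and pairs share members, so this is a description with no test.

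**Figure D4:**
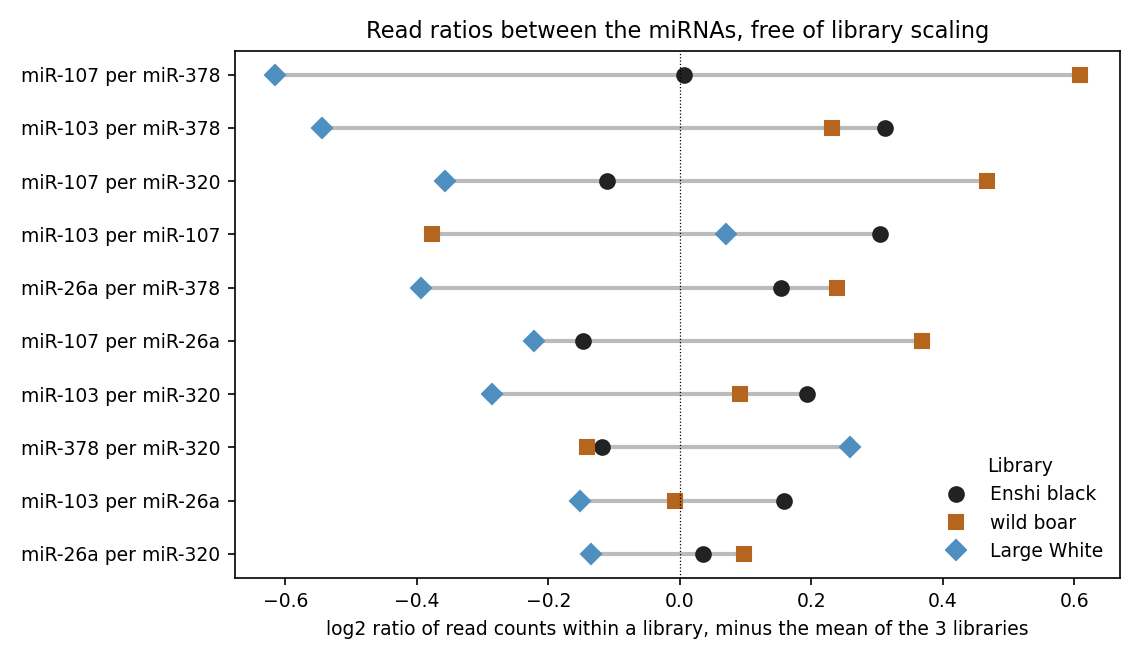
For the 10 pairs of members, the log2 ratio of their read counts within each library, minus the mean of the 3 libraries, so that no scaling between libraries enters. The 4 ratios at the top and the one of miR-26a per miR-378 all involve miR-107 or miR-378; the Large White library lies furthest left wherever reads are given per miR-378.

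Against miR-122, the hepatocyte miRNA that was the most abundant of the liver cell markers, the members differed in another order. Per 1000 reads of miR-122 there were 3.45 reads of miR-378 in the Enshi black, 2.94 in the wild boar and 3.12 in the Large White library, so miR-378 was then not highest in the Large White library. For miR-103 there were 21.2, 17.0 and 10.6 reads, for miR-26a 145, 131 and 89.8 reads, and for miR-107 3.05, 3.93 and 1.79 reads in the same order. miR-320 had 7.91, 6.83 and 5.50 reads per 1000. Relative to miR-122 the Large White library was thus lowest for each member other than miR-378.

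Marker miRNAs of other cell types were also read, and several of these lists moved between the libraries. Whether such cells were in the tissue was not tested. The 4 liver cell markers (miR-122, miR-885-5p, miR-192 and miR-194a) summed to 341596 CPM in the Enshi black, 439702 in the wild boar and 657125 in the Large White library, and to 410474, 473750 and 507558 on library totals. After TMM scaling miR-378, miR-320 and miR-26a had that order of libraries too, with miR-26a nearly equal in wild boar and Large White. On library totals none of these members kept the order of the liver cell sum. The 5 of 6 leucocyte markers found summed to 10877, 3651 and 20807 CPM, and to 13070, 3933 and 16071 on library totals, lowest in the wild boar library, where miR-107 was highest. The 3 red cell markers summed to 4114, 3114 and 5324 CPM, against 4944, 3356 and 4112 on library totals, where the Enshi black library was highest. Most of the leucocyte sum came from miR-142-3p (8054, 2346 and 16873 CPM) and most of the red cell sum from miR-451 (3318, 2556 and 3641 CPM). After TMM scaling miR-150, highest in Enshi black, and miR-486, lowest in Enshi black, did not follow their sums, whereas the others did. The 4 markers of smooth muscle and stellate cells summed to 42462, 34011 and 31563 CPM, and the 2 endothelial markers to 16284, 12169 and 10080 CPM. On library totals these were 51024, 36645 and 24379 CPM, and 19568, 13111 and 7786 CPM. The 5 striated muscle markers, which bear on miR-378 because it is also abundant in muscle, summed to 230, 176 and 395 CPM. On library totals they summed to 276, 190 and 305 CPM, and only 3 of the 5 passed the minimum. None of the markers found had a count of 0 in any library, but miR-133b had only 5, 4 and 7 counts and miR-206 only 8, 17 and 32. In bulk tissue fewer cells of a type and less of a miRNA per cell cannot be told apart, and the part these cells play in the members' values was not tested.

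Of 33 other miRNAs listed for a link to glucose, insulin and energy metabolism, 26 were found and 24 passed the minimum. In Enshi black over Large White none of the 24 was at least 2-fold higher and 3 were lower, where 13.0% of all miRNAs passed 2-fold in either direction, and the median log2 ratio was 0.02 (−0.04 over all miRNAs). In wild boar over Large White 1 was higher and 4 lower, against 25.0% of all (median 0.21, and −0.02 over all). In Enshi black over wild boar 1 was higher and none lower, against 12.5% of all (median −0.08, and −0.01 over all). On library totals the counts were 7 higher and none lower, 4 and 4, and 1 and none in the same pairs, where 30.3%, 30.8% and 10.6% of all miRNAs passed. In the first of these pairs 57 of the 63 miRNAs past 2-fold were higher.

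miR-22-3p, which acts on glucose and fat metabolism in liver, stood at 5386 CPM in the Enshi black, 5872 in the wild boar and 16631 in the Large White library. miR-29b, a repressor of collagen genes that also acts on insulin signalling, stood at 1785, 998 and 3980 CPM, and miR-7, which is typical of islet cells and neurons, at 288, 165 and 580 CPM. These 3 were more than 2-fold lower in both pairs over Large White after TMM scaling. On library totals they stayed so in wild boar over Large White, whereas in Enshi black over Large White their log2 ratios were −0.99, −0.52 and −0.37. miR-30d, which is known to raise insulin gene expression in islet cells, stood at 5294, 8465 and 4008 CPM and was the 1 miRNA of the list more than 2-fold higher in wild boar over Large White. The lymphocyte miR-150, itself among the leucocyte markers above, stood at 314, 91.0 and 278 CPM, lowest in the wild boar library. For the most abundant 4 of the list, namely miR-122, let-7a, miR-29a and miR-143-3p, the log2 ratio was −0.91, −0.10, −0.09 and 0.43 in Enshi black over Large White and −0.55, 0.34, −0.08 and 0.02 in wild boar over Large White. On library totals these became −0.28, 0.54, 0.55 and 1.07, and −0.07, 0.82, 0.40 and 0.50.

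**Figure D5:**
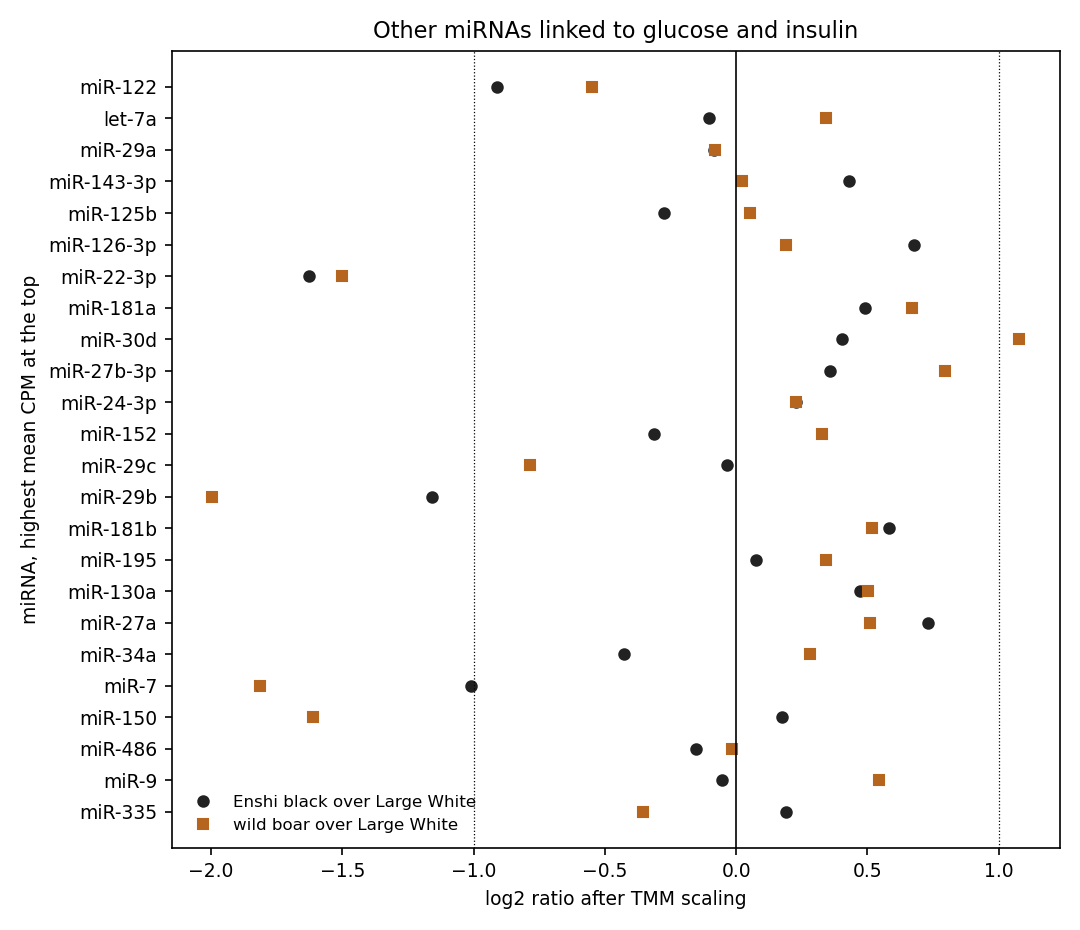
The log2 ratio after TMM scaling of the 24 other miRNAs linked to glucose, insulin and energy metabolism, in Enshi black over Large White (circles) and wild boar over Large White (squares), with 2-fold marked by dotted lines. miR-22-3p, miR-29b and miR-7 lie beyond 2-fold lower in both pairs, and miR-30d lies beyond 2-fold higher in wild boar over Large White.

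The miRNAs whose pattern over the 3 libraries lay nearest to a member were found by the distance between log2 levels minus each miRNA's mean. The search covered 129 miRNAs with a mean of at least 100 CPM, the member itself included. With only 3 libraries close matches are easily found, so these are descriptions. Nearest to miR-103 was miR-423-3p, with 449, 464 and 414 CPM in the Enshi black, wild boar and Large White libraries, at a distance of 0.02, and miR-181c followed at 0.06. Nearest to miR-107 were miR-152 at 0.19, with 2495, 3893 and 3102 CPM, and let-7e at 0.20. miR-486 at 0.06 and miR-148a-3p at 0.07 were nearest to miR-26a. Nearest to miR-378 were miR-155-5p at 0.16, a leucocyte marker with 562, 527 and 866 CPM, and miR-122 at 0.17. miR-148a-3p at 0.10, with 16482, 18882 and 20247 CPM, and miR-361-3p at 0.12 were nearest to miR-320.

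The neighbours of the members by mean level show how much miRNAs of like abundance varied. Beside miR-103 stood miR-191, with 5689 CPM in the Enshi black, 7029 in the wild boar and 5985 in the Large White library, and miR-30d. Beside miR-107 stood miR-23b, with 1028, 1407 and 873 CPM, and miR-374a-5p, with 1303, 1139 and 752 CPM. miR-378 stood between miR-151-3p, with 1491, 816 and 1647 CPM, and miR-339, with 820, 1850 and 903 CPM. miR-320 stood between miR-425-5p, with 2663, 2306 and 3010 CPM, and miR-145-5p, with 2701, 2408 and 2253 CPM.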

How the data were processed

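Small RNA of 14 to 40 nucleotides was sequenced as 50 base single-end reads, per the labels' protocols. Per the submitters' processing notes the build was Sscrofa 10.2. Not given in the sources used here are the aligner, the counter and the annotation of miRNAs. The authors deposited expected counts for each mature miRNA and precursor, with fractions where rows share reads, and RPM, which equals the count over the sum of all rows, times 1000000. RPM served only as a check of that sum.

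Counts were summed over precursors and rounded. Whole-number counts had been assumed in planning. Names repeating another name's rows were left out (6 names), which left 405. The TMM factors (edgeR 4.0.16, R 4.3.3) came to 1.20 (Enshi black), 1.08 (wild boar) and 0.772 (Large White). Ratios carry conditional-binomial intervals and shares Clopper-Pearson intervals, computed with scipy 1.17.1. No p-value was computed, since there is 1 library for each breed. The comparisons used the 208 miRNAs with a mean of at least 10 CPM on library totals. The interval and the 2-fold rule were checked on counts simulated with counting noise only and with the true scaling given. That check did not cover the choice of scaling or the spread between animals. Alternatives were CPM of the library total, the total without miR-122, DESeq2 1.42.0 size factors, other minimums and folds, repeated names kept, thinned and unrounded counts, and 1 precursor row. Named beside the members were list miRNAs past 2-fold, the 4 most abundant of the list, the 2 nearest in pattern and the neighbours in level. The members and lists were chosen with earlier results of these data known.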

Additional observations from a re-analysis of the deposited data

How the results depend on the processing

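No paired analysis was possible because each breed has 1 library. Pairs are given below in the order Enshi black over Large White, wild boar over Large White, Enshi black over wild boar. The count of members past 2-fold (0 in each pair) became 1 in wild boar over Large White with CPM of the library total and with the total without miR-122. With the 1.5-fold threshold it became 1, 2 and 1, and it stayed 0 in each pair with DESeq2 size factors, repeated names kept and thinned counts. It was also 0 with a 4-fold threshold and the other minimums. Those settings could not change it, since no member passed 2-fold and each stood above every minimum. The 15 ratios of single members kept their direction in 7 cases with CPM of the library total, 10 with the total without miR-122 and 14 with DESeq2 size factors. The miR-103 share was 77.7%, 68.5% and 74.8% in the Enshi black, wild boar and Large White libraries with 1 precursor row per mature name, which drops about as many miR-103 reads as it keeps; rounding and thinning moved it less than its interval. Of all miRNAs, 27, 52 and 26 were past 2-fold. In Enshi black over Large White 63 were with CPM of the library total (57 higher and 6 lower, against 6 and 21 after TMM scaling) and 45 with the total without miR-122 (37 and 8). In wild boar over Large White these splits were 45 and 19, and 43 and 19, against 24 and 28, and in Enshi black over wild boar 15 and 7 on library totals against 13 and 13. The DESeq2 split was 7 and 17 in the first pair. With no minimum 52, 85 and 50 were past 2-fold, with a minimum mean CPM of 100 13, 31 and 14, with 1.5-fold 72, 95 and 53, and with 4-fold 2, 9 and 3. Of the list of other metabolism miRNAs, 3, 5 and 1 were past 2-fold, which became 7 and 8 in the first pairs with CPM of the library total, 6, 8 and 8 at 1.5-fold and 0 in each at 4-fold. The cause of these shifts was not tested. The lowest count of a member was 5438 reads, and the spread between animals was not measured.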
